A study of Mus musculus with 4 samples.

Results

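Pecam1, Tie1 and Ecscr are 3 genes of the endothelial cell surface, and they were read by name from a table of 9114 genes measured in sorted lymphatic endothelial cells of the mouse meninges. All 3 had a row, and all 3 passed the filter on low values (a mean of at least 10 normalised counts), which left 9063 genes for the test. The cells came from male C57BL/6J mice aged 20 to 24 months. A volume of 5 µL of adeno-associated virus had been injected into the cisterna magna of each mouse 4 weeks before. In the treated group (mVEGF-C) the virus was AAV1-CMV-mVEGF-C, which carries the mouse lymphatic growth factor VEGF-C. In the control group (eGFP) it was AAV1-CMV-eGFP, which carries a fluorescent protein, so the controls received a vector of the same serotype too. The CMV promoter is not specific to a cell type, and the labels do not say which cells took up the vector. Each group had 2 libraries, and each library was made from the pooled meninges of 10 mice, so the spread between libraries is a spread between pools. The cells had been gated as live singlets lacking CD45 and bearing CD31 and podoplanin. CD31 is the protein made by Pecam1, so every sorted cell had already been chosen for that protein.

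Endothelial cells line both blood and lymphatic vessels, and they carry a shared set of surface genes besides those that tell the vessel types apart. Pecam1 encodes an adhesion molecule of the immunoglobulin superfamily that binds itself across the junctions between endothelial cells; its cytoplasmic tail recruits the phosphatase SHP-2, and it takes part in the sensing of flow. Leukocytes and platelets carry it too. Tie1 encodes a receptor tyrosine kinase with no firmly established ligand of its own. It pairs with TIE2, the product of Tek and the receptor of the angiopoietins, and mouse embryos lacking Tie1 have malformed lymphatic vessels. Ecscr encodes a small single-pass membrane protein of endothelial cells that has been linked to filamin A and to signalling by the VEGF receptor VEGFR2.

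Pecam1 (ENSMUSG00000020717.19) lies on the minus strand of chromosome 11, from 106654217 to 106750628, and has 8 annotated transcripts, 6 of them protein-coding. Tie1 (ENSMUSG00000033191.14) lies on the minus strand of chromosome 4, from 118471191 to 118490061, with 3 transcripts, 2 of them protein-coding. Ecscr (ENSMUSG00000073599.10) lies on the minus strand of chromosome 18, from 35713086 to 35722356, with 7 transcripts, 4 of them protein-coding. These positions are those of GENCODE vM21 on GRCm38, the assembly also called mm10. No annotated gene overlaps Pecam1 or Tie1. Ecscr is overlapped on the other strand by 1700066B19Rik, and their exons share 62 bases. The sources used here do not say whether the counting used strand. The reads assigned to 1700066B19Rik came to 0.54% to 4.07% of those of Ecscr in the 4 libraries.

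Of the 3 genes, Tie1 had an entry in the RefSeq promoter table (GRCm38.p6). The stretch shown is the part of its window that lies upstream of every annotated Tie1 exon, chr4:118490062-118490099, read on the minus strand. The RefSeq start of Tie1 lies at 118489849, and the rest of the window was not searched. Capitals mark the letters GGAA on either strand, the core bound by ETS factors such as Erg and Fli1, which maintain endothelial gene expression and are among the genes described further on.

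Tie1 upstream: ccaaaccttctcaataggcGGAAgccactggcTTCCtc

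The 38 bases held GGAA 2 times, counted on both strands. Of the 32851 promoter windows of the table, 33.3% held it at least once in the same 38 positions and 6.0% held it 2 times or more. The letters GATA did not occur in the stretch, and 13.6% of windows held them there. These matches are a description of the sequence and not evidence of binding.

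Depth lay between 25610683 and 28632461 reads per library on the genes of the table. Lymphatic markers were abundant in every library, and the markers of lymphatic endothelium summed to 590807 to 673744 normalised counts in eGFP and 623349 to 769390 in mVEGF-C libraries. Markers of other cells were present as well. Fibroblast markers (13 of 20 with a row) summed to 96411 to 99229 in eGFP and 79458 to 111703 in mVEGF-C libraries, and blood endothelial markers (18 of 24) to 37380 to 68189 and 43927 to 48327. Mural markers, those of pericytes and smooth muscle (5 of 13), summed to 22693 to 28796 in eGFP and 13248 to 18064 in mVEGF-C libraries, without overlap. Rgs5 made up 41.9% of the mural sum, and its own groups overlapped. Of the 5 mural genes, 2 were lower in both mVEGF-C than in both eGFP libraries, an order that 19.8% of all genes had. Ttr, transthyretin, a product of the choroid plexus, was the 1 called marker gene of any list, with 3947.1 and 19584.1 normalised counts in eGFP against 511.7 and 824.1 in mVEGF-C libraries (log2 fold change -3.76, limma, adjusted p = 0.00306). Ttr was no longer called without eGFP 2 (limma, adjusted p = 0.999) or without the variance trend (adjusted p = 0.15). The leukocyte list had 6 of 22 members with a row, 88.8% of its counts came from Mrc1, which lymphatic endothelium also expresses, and Cd3e was at 0 in 1 library. Ptprc, which encodes CD45, and all 10 platelet markers had no row and were not analysed here. The highest and lowest fold changes of the tested fibroblast markers were Fbln1 (2.10), Ogn (1.61), Col15a1 (-2.38) and Islr (-2.36), with the collagen gene Col1a1 at 1.02. Those of the mural markers were Pdgfrb (0.94), Rgs5 (-0.56), Kcnj8 (-1.22) and Notch3 (-2.74), and those of the leukocyte markers Laptm5 (2.52), Cx3cr1 (0.44), Fcer1g (-2.05) and Itgam (-2.25). Of the 7 neural, glial and epithelial markers with a row, Sox10 (2.55) and S100b (1.57) had the highest fold changes and Ttr the lowest. None of these other than Ttr was called by limma. Islr was called by edgeR, DESeq2 and robust eBayes (adjusted p of 0.0216, 0.041 and 0.0489). In such bulk libraries, fewer cells of a type and less RNA per cell cannot be told apart.

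All 3 genes were higher in both mVEGF-C libraries than in both eGFP libraries. None of the differences passed the test in limma, edgeR or DESeq2. At an unadjusted p under 0.05, 1 of the 3 (Ecscr) was higher in limma, as were 5.09% of all genes. The unadjusted p of Tie1, Ecscr and Pecam1 was 0.0366, 0.0274 and 0.251 in edgeR. In DESeq2 it was 0.0665, 0.0816 and 0.52. Over all 9063 genes it was under 0.05, in either direction, for 1068 in edgeR and 1509 in DESeq2. A gene is said to be called where the Benjamini-Hochberg adjusted p of limma over all 9063 genes is under 0.05. By that rule 2.14% of genes were called, 0.828% higher and 1.31% lower. An order with the 2 treated libraries above the 2 controls was found for 19.4% of all genes, and the opposite order for 19.8%, so both are common in the table. The genes were chosen with their direction known, and the count of 3 in 3 is therefore a description. Ecscr and Tie1 stood 2.62-fold and 2.73-fold higher by the ratio of group means, and Pecam1 1.41-fold.

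Pecam1, the junctional adhesion molecule, had 13961.7 normalised counts in eGFP 1, 15735.9 in eGFP 2, 23931.7 in mVEGF-C 1 and 18068.5 in mVEGF-C 2. The mVEGF-C 1 library stood highest, and mVEGF-C 2 was closer to eGFP 2 than to the other library of its own group. The group means were 14849 ± 1255 in eGFP and 21000 ± 4146 in mVEGF-C libraries (mean ± SD, n = 2 each). The difference was 0.49 on the log2(normalised count + 1) scale with an SE of 0.43 (limma, adjusted p = 0.766), and its 95% interval was -0.35 to 1.32. That interval runs from 0.786-fold to 2.50-fold, so neither no difference nor a doubling lies outside it. The ratios between single libraries of the 2 groups ranged from 1.15 (mVEGF-C 2 over eGFP 2) to 1.71 (mVEGF-C 1 over eGFP 1). Without mVEGF-C 1 the log2 difference was 0.29.

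Tie1, the receptor kinase, had 3028.4 normalised counts in eGFP 1 and 2875.5 in eGFP 2, which were 0.07 apart on the log2 scale. It had 6059.3 in mVEGF-C 1 and 10068.3 in mVEGF-C 2, which were 0.73 apart. Here mVEGF-C 2 stood highest, the opposite order to Pecam1. The means were 2952 ± 108 and 8064 ± 2835 (SD, n = 2 each), and each ratio of a mVEGF-C to an eGFP library lay between 2.00 and 3.50. On the log2 scale the difference was 1.40 ± 0.72 (SE), with a 95% interval of -0.003 to 2.81 (limma, unadjusted p = 0.0505, adjusted p = 0.426). Tie1 thus ranked 1073 of 9063 genes by p and 1095 by fold change.

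Ecscr, the small membrane protein gene, had 4949.1 normalised counts in eGFP 1, 3118.1 in eGFP 2, 12549.1 in mVEGF-C 1 and 8562.3 in mVEGF-C 2. The lowest mVEGF-C library was 1.73 times the highest eGFP library, and the widest ratio, mVEGF-C 1 over eGFP 2, was 4.03. The means were 4034 ± 1295 and 10556 ± 2819 (SD, n = 2 each). On the log2 scale the difference was 1.40 ± 0.65 (SE), with a 95% interval of 0.13 to 2.67 (limma, unadjusted p = 0.031, adjusted p = 0.332). An unadjusted p under 0.05 with a higher level in mVEGF-C was found for 5.09% of all genes. The interval excluded 0 with the variance taken from the trend on expression. It did not without the trend, where it ran from -0.59 to 3.39 (limma, adjusted p = 0.648). The unadjusted p of Ecscr was 0.0274 in edgeR and 0.0816 in DESeq2. Without eGFP 2 the log2 difference was 1.07, and without mVEGF-C 1 it was 1.12.

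**Figure D1:**
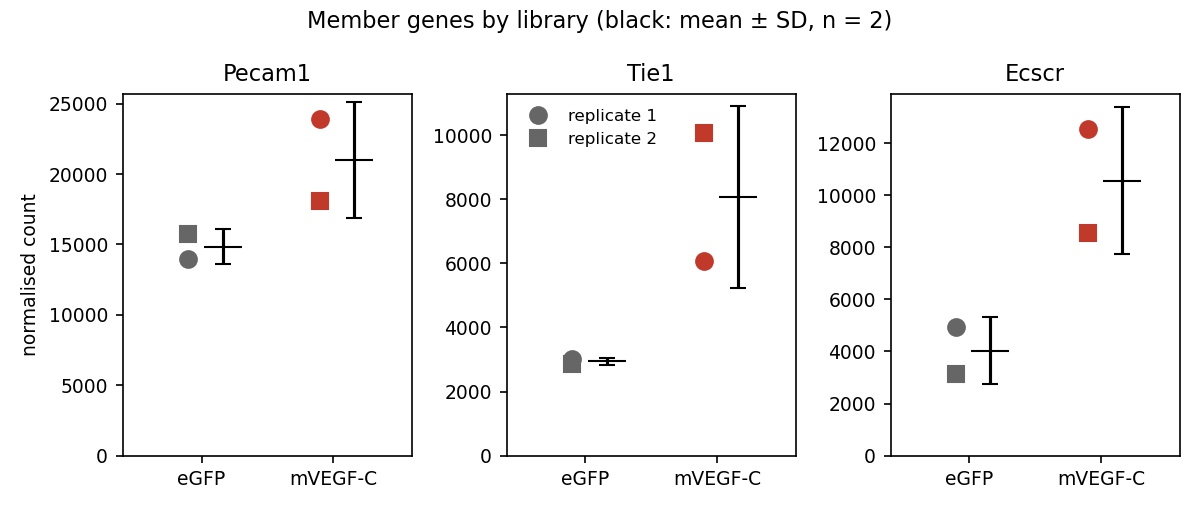
Normalised counts (vertical axes, starting at 0, with a separate scale for each gene) of Pecam1, Tie1 and Ecscr in the eGFP libraries (grey) and mVEGF-C libraries (red). Circles are replicate 1, squares replicate 2, and the black marks are mean ± SD over 2 libraries; both red points lie above both grey points in each panel, and mVEGF-C 1 is the higher red point for Pecam1 and Ecscr but the lower one for Tie1.

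The replicate libraries of a group had been held together when the table was made, since the deposited genes all lie within limits on replicate spread. The members were not near those limits. The 2 libraries of the eGFP pair differed by at most 2.83 on the log2(reads + 1) scale for any gene, and the widest difference between any pair of the 4 libraries was 0.61 for Pecam1, 2.01 for Tie1 and 2.01 for Ecscr. Any other pairing of the 4 libraries would also have kept the 3 genes in the table. Among all genes, the widest such difference was 10.69.

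The size a difference needed for a call depended on the level of the gene. Of the 2514 genes with means between 2000 and 20000 normalised counts, the range that holds all 3 members, 15 were called. The smallest called log2 fold change among them was 1.99 in absolute size. The SE was 0.43 for Pecam1, 0.65 for Ecscr and 0.72 for Tie1, so 1.99 is not the size that each member needed. Over all genes the median absolute fold change was 0.79, and it was 4.88 among the called ones.

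**Figure D2:**
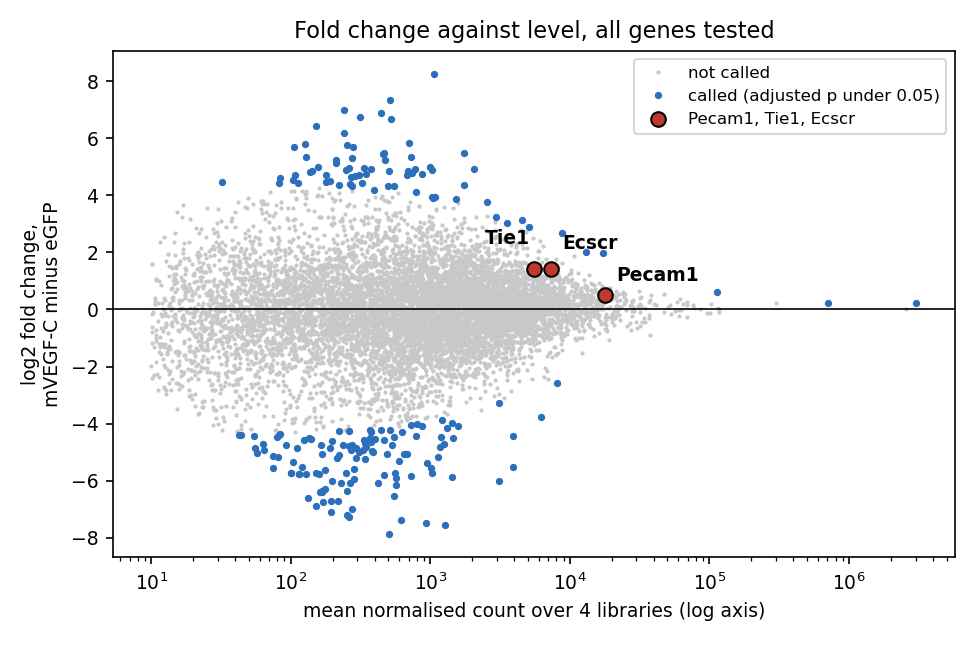
Log2 fold change of mVEGF-C minus eGFP (vertical axis) against the mean normalised count over 4 libraries (horizontal log axis) for the 9063 genes tested, with called genes in blue, the others in grey, and the members as red circles. Tie1 and Ecscr sit side by side at 1.40 in the upper part of the grey cloud, and Pecam1 at 0.49 lies further right, where the cloud is narrow.

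Levels of different genes were compared per kilobase of the longest protein-coding transcript, which is 3441 bases for Pecam1, 4234 for Tie1 and 1114 for Ecscr. Per kilobase, Ecscr had 3621 ± 1162 normalised counts in eGFP and 9475 ± 2531 in mVEGF-C libraries (SD, n = 2 each). Pecam1 had 4315 ± 365 and 6103 ± 1205 on the same scale, and Tie1 697 ± 25.5 and 1905 ± 670. Tie1 was the lowest of the 3 in every library. Ecscr was above Pecam1 in eGFP 1 and in both mVEGF-C libraries and below it in eGFP 2, and in the eGFP group these 2 genes did not differ beyond their spread. The order was the same in each library when all exonic bases of a gene were used as its length. By mean level per kilobase, Ecscr ranked 67, Pecam1 97 and Tie1 917 of the 8957 genes with a length. By that measure the transcripts of the membrane protein and of the adhesion molecule were among the abundant ones in these cells, and that of the receptor was less so. By mean normalised count, without division by length, Pecam1 ranked 120, Ecscr 540 and Tie1 834 of 9063 genes. The place of Ecscr above Pecam1 thus rests on the division by length, which assumes even coverage of a transcript. That assumption was not tested.

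The other pan-endothelial genes gave the background for the members. Of 47 such genes, 36 had a row and were tested; 17 were above 0, 19 below and 0 were called in either direction by limma, edgeR or DESeq2. At an unadjusted p under 0.05, 0 were higher and 1 was lower in limma, where 5.09% of all genes were higher and 6.70% lower by that rule; these shares are the background for the same counts in the other lists. Their median log2 fold change was -0.04, against -0.02 over all genes tested, of which 49.5% were above 0. The list's median was 0.04 in edgeR and 0.01 in DESeq2, and lay between -0.22 and 0.11 with single libraries left out, so its sign is not settled. With all 4 libraries, Tie1 and Ecscr had the highest and the next highest fold change of the 39 pan-endothelial genes with the members included, and Pecam1 the ninth. That order did not hold when any single library was left out. The members and the list were chosen with earlier results of these data known, so the ranks are a description. Cd34 stood first without eGFP 2 (2.17) and without mVEGF-C 1 (2.49), Bcl6b without eGFP 1 (1.80) and Ecscr without mVEGF-C 2 (1.68), while Tie1 ranked from 2 to 4, Ecscr from 1 to 5 and Pecam1 from 5 to 15. Cd34, a sialomucin of the endothelial and progenitor surface, followed Ecscr at 1.11, with groups that overlapped and a value of -0.28 without mVEGF-C 2 and 2.49 without mVEGF-C 1. Bcl6b, a transcriptional repressor, stood at 0.97, also with overlap, and at 0.14 without eGFP 2. Cdh5, the adherens junction cadherin of endothelium, had 29719.7 and 29463.3 normalised counts in eGFP against 30879.8 and 37123.7 in mVEGF-C libraries, a log2 difference of 0.19 (95% interval -0.43 to 0.82). The lowest were Gpr4, a proton-sensing receptor, at -2.46, and She, an adaptor protein gene, at -1.42 (limma, adjusted p = 0.388 and 0.427). Egfl7, a secreted endothelial factor, at -0.44, Eng, the TGF-beta co-receptor endoglin, at 0.05, and Cldn5, a tight junction claudin, at 0.14 had overlapping groups. The sign of Eng turned to -0.03 with the libraries rescaled to 1 total, -0.02 with upper quartile scaling and -0.02 with quantile normalization.

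**Figure D3:**
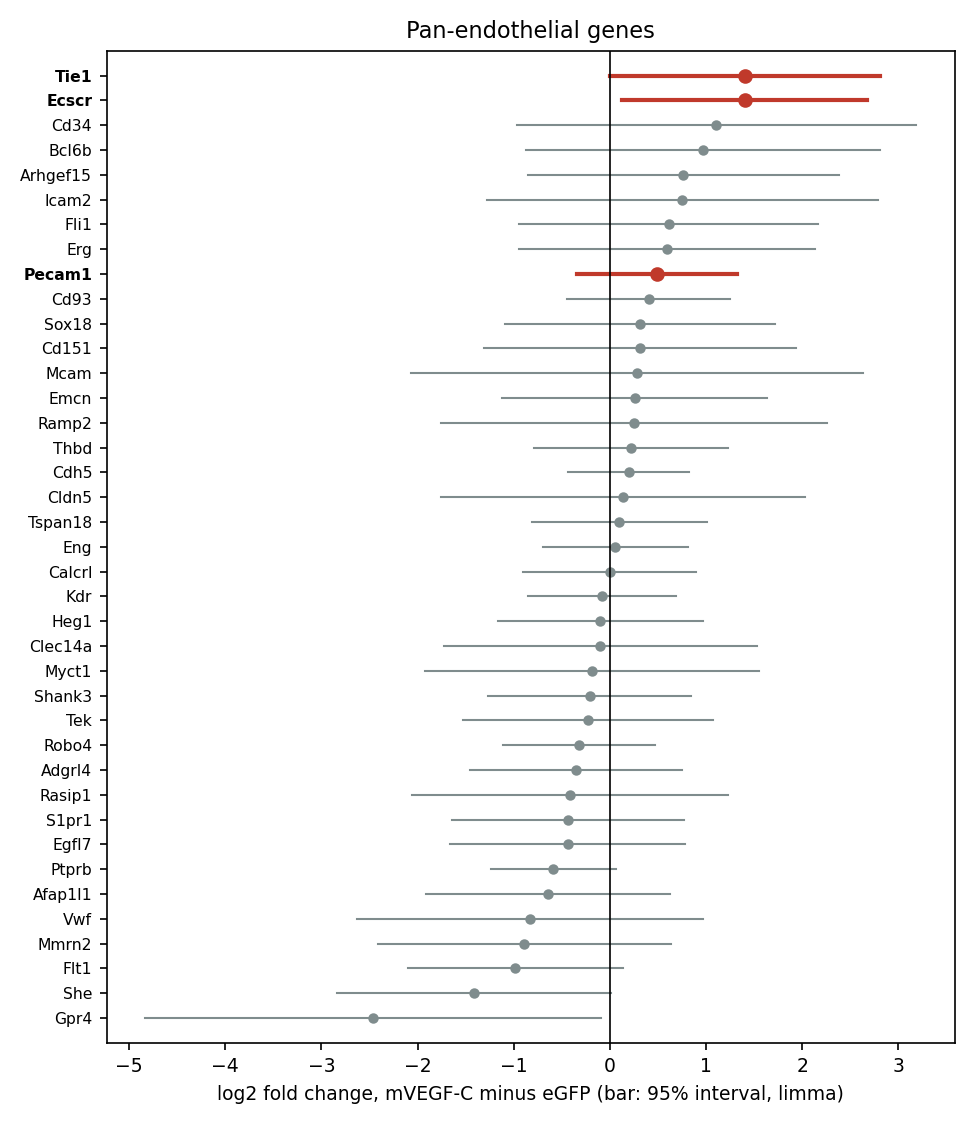
Log2 fold change of mVEGF-C minus eGFP with its 95% interval from limma (horizontal axis) for the 39 pan-endothelial genes tested, sorted by fold change, with the members in red and bold. With all 4 libraries, Tie1 and Ecscr are at the top at 1.40, Pecam1 is the ninth at 0.49, and the intervals of all genes other than Ecscr and Gpr4 reach 0.

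A difference that is taken within a library does not depend on how the libraries were scaled. Relative to the mean log2 level of the 36 other pan-endothelial genes, Pecam1 stood at 1.54 and 1.52 in eGFP 1 and 2 and at 2.39 and 1.84 in mVEGF-C 1 and 2. Tie1 stood at -0.66 and -0.93 in the controls and at 0.41 and 0.99 after mVEGF-C. Ecscr stood at 0.05 and -0.81 in the controls and at 1.46 and 0.76 after mVEGF-C. The groups were separate for each gene on this scale. It uses the same values of the members, so the separation is a description and not further evidence. The share of all genes that separate on this scale was not computed. The level of a gene here also reflects its length, so only the differences between libraries are compared. The group differences were 0.58 for Pecam1, 1.50 for Tie1 and 1.49 for Ecscr, each with an exact two-sided permutation p of 0.333, the smallest that 2 against 2 libraries can give. With lymphatic markers as the reference in place of pan-endothelial genes, they were 0.36, 1.27 and 1.27.

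Tie1 acts together with Tek, and their fold changes had opposite signs. Tek had 5695.9 and 7548.9 normalised counts in eGFP against 4057.3 and 7709.4 in mVEGF-C libraries, with overlapping groups and a log2 difference of -0.23 ± 0.66 (SE; limma, adjusted p = 0.961). The sign for Tek turned to 0.23 without mVEGF-C 1. Per kilobase, the ratio of Tie1 to Tek was 0.584 and 0.419 in the controls and 1.64 and 1.44 after mVEGF-C. Tek was thus the more abundant of the pair in both control libraries and Tie1 in both treated ones. The log2 ratio differed by 1.63 between the groups, a 3.10-fold change, with an exact two-sided permutation p of 0.333, again the smallest possible. It lay between 1.39 and 1.87 when single libraries were left out. This ratio was chosen after the values had been seen.

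**Figure D4:**
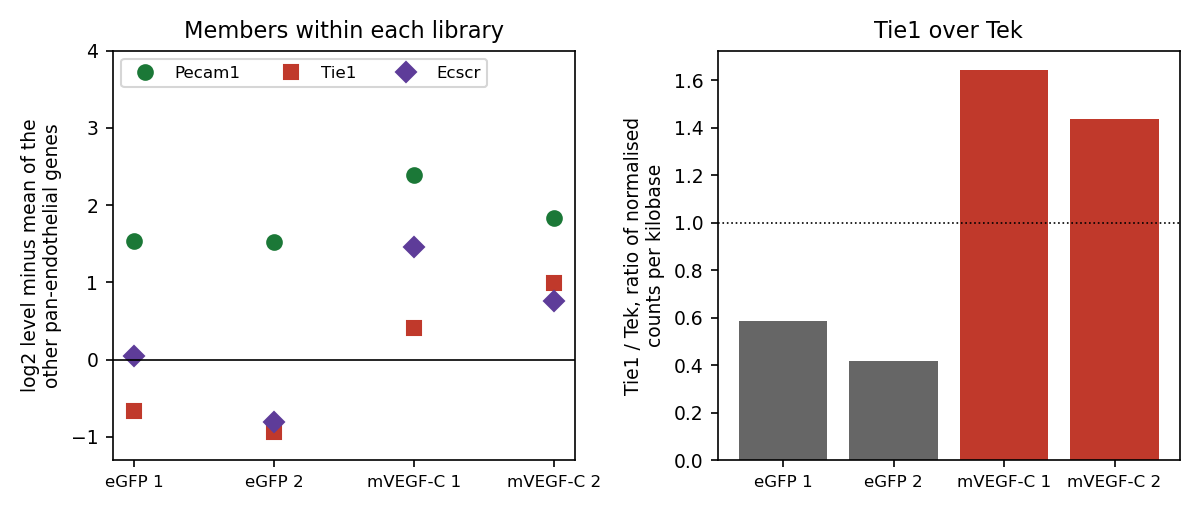
Left, the log2 level of each member minus the mean log2 level of the 36 other pan-endothelial genes in each library; right, the ratio of Tie1 to Tek in normalised counts per kilobase, with bars from 0, grey for eGFP and red for mVEGF-C libraries and a dotted line at equal levels. Each member is higher in the mVEGF-C than in the eGFP libraries, and the ratio is 0.584 and 0.419 in the grey bars and 1.64 and 1.44 in the red ones.

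Among the other genes of the angiopoietin and Tie pathway, 15 of 26 had a row and were tested. DESeq2 called 1 of them higher and 0 lower, against 283 higher and 318 lower of all 9063 genes. By limma or edgeR, 0 of the 15 were called in either direction. At an unadjusted p under 0.05, 1 was higher and 0 were lower. There were 6 above 0 and 9 below, with a median log2 fold change of -0.10 that turned to 0.03 without eGFP 2 and without mVEGF-C 1. The ligand gene Angpt2 had 7306.8 and 15070.0 normalised counts in eGFP against 13181.5 and 9416.1 in mVEGF-C libraries, so the groups overlapped, and its fold change of 0.09 turned to -0.44 without eGFP 1. Angpt1 had no row. Ptprb encodes the phosphatase VE-PTP, which dephosphorylates TIE2. It had 23639.6 and 55860.9 in eGFP against 22533.3 and 25954.4 in mVEGF-C libraries, a log2 fold change of -0.59 that was 0.03 without eGFP 2. Itga5, the fibronectin receptor subunit, had the highest fold change of the list at 2.30, with 1310.9 and 1701.8 normalised counts in eGFP against 5900.1 and 9214.5 in mVEGF-C libraries (limma, adjusted p = 0.118). DESeq2 on the recovered reads called it (adjusted p = 0.0494). The lowest were Ptpn11 at -1.32 and Svep1, an extracellular matrix protein gene of lymphatic development, at -1.10, which turned to 0.20 without eGFP 2.

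Of 30 junction and signalling partners of Pecam1, 23 were tested and 0 were called by limma or edgeR. DESeq2 called 0 of them higher and 1 lower, against 283 higher and 318 lower of all 9063 genes. Among the 23, 12 were above 0 and 11 below, with a median of 0.18 that turned to -0.04 without eGFP 1. At an unadjusted p under 0.05, 1 was higher and 3 were lower. Lyn, a Src-family kinase gene picked out after its values were seen, was called lower without mVEGF-C 2 (log2 fold change -3.38, limma, adjusted p = 0.0124). Ptpn11, which encodes the phosphatase SHP-2 that docks on the tail of Pecam1, had 1306.4 and 4196.7 normalised counts in eGFP against 407.0 and 2144.3 in mVEGF-C libraries, with overlap (log2 fold change -1.32, limma, adjusted p = 0.695). Its fold change lay between -2.52 without mVEGF-C 2 and -0.13 without mVEGF-C 1. Jup, the junction protein plakoglobin, had 7300.5 and 1439.9 in eGFP against 14952.7 and 8221.3 in mVEGF-C libraries (1.77, limma, adjusted p = 0.162). Gna11, a G protein subunit, stood at 1.15 with overlap. Jam3, another junctional adhesion molecule of the immunoglobulin superfamily, had a fold change of the opposite sign to that of Pecam1, with 400.3 and 1755.2 in eGFP against 121.8 and 142.1 in mVEGF-C libraries (-2.66, limma, adjusted p = 0.321). DESeq2 called it (adjusted p = 0.0205). The kinase gene Src, at 4.6 to 182.8 normalised counts, stood at -2.70.

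Of the partners of Ecscr that were tested, 0 were called by limma, edgeR or DESeq2, and 0 had an unadjusted p under 0.05 in limma. Flna, filamin A, had 8475.3 and 8364.5 normalised counts in eGFP against 8376.4 and 8257.6 in mVEGF-C libraries, a log2 difference of -0.02 (limma, adjusted p = 0.998; 95% interval -1.16 to 1.13). Kdr, which encodes VEGFR2, had 17637.5 and 26547.2 in eGFP against 28987.8 and 14404.3 in mVEGF-C libraries, so both of its extremes were mVEGF-C libraries. The log2 difference of Kdr was -0.08, and it was 0.21 without eGFP 2 and 0.42 without mVEGF-C 2.

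Of 27 endothelial transcription factors, 19 were tested and 0 were called by limma, edgeR or DESeq2, with 11 above 0 and a median of 0.20. Without eGFP 1 that median was -0.02, with 9 above 0, and without mVEGF-C 1 it was 0.03. At an unadjusted p under 0.05 there were 0 in either direction. The ETS factor Erg had 3434.9 and 2554.8 normalised counts in eGFP against 3397.1 and 5871.7 in mVEGF-C libraries, with overlap (log2 fold change 0.59). Fli1, its close relative, had 3468.9 and 2361.3 against 3576.6 and 5352.4 (0.61). For both, mVEGF-C 2 was the highest library. A link between these factors and the level of Tie1 was not tested. Klf2, a factor induced by flow, stood at 0.70 with overlap. Ets2 stood lowest at -0.89, with 7977.5 and 7910.2 in eGFP against 4803.0 and 3830.5 in mVEGF-C libraries (limma, adjusted p = 0.696), and Elf1 was at -0.74. Sox18, which acts upstream of Prox1, was at 0.31 and at -0.003 without mVEGF-C 1.

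The lymphatic markers tested with the members, 18 of 20, had 11 above 0 and a median of 0.12, and 0 were called by limma, edgeR or DESeq2. At an unadjusted p under 0.05, 2 were higher and 0 were lower. Itga9, the integrin of lymphatic valves, and Fgl2 were the highest at 1.29 and 0.72, and Ackr2, a chemokine scavenger, and Stab2, a scavenger receptor, the lowest at -1.13 and -0.45. Of 18 blood endothelial markers 9 were above 0, with a median of -0.29, and 0 were called by limma, edgeR or DESeq2. That median turned to 0.17 without mVEGF-C 2 and to 0.05 with a filter at a mean of 50, and it was -0.93 without mVEGF-C 1. At an unadjusted p under 0.05, 0 were higher and 2 were lower. Their highest were Efnb2 at 1.47 (0.16 without eGFP 1) and Itm2a at 1.08 (0.08 without eGFP 2), and the lowest Spock2 at -3.26 and Selp, P-selectin, at -3.03. Selp was called without mVEGF-C 2 (limma, adjusted p = 0.00305) and Spock2 without mVEGF-C 1 (adjusted p = 0.0141). Flt4, the VEGF-C receptor, and Pdpn, the other surface protein of the sort, stood at 0.18 and -0.11 with overlapping groups, and single libraries turned both signs. The part of cell composition in the members' differences was not tested.

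Genes with the profile most like that of each member were found by the Euclidean distance between log2 values over the 4 libraries, each gene centred on its own mean, among the 8258 genes that averaged 50 or more normalised counts. For Pecam1 the nearest were Zcrb1, Nrp2, Olfr1028, Cd93 and 6820431F20Rik, at distances of 0.07 to 0.12. Of these, Nrp2 is the VEGF-C co-receptor and Cd93 an endothelial glycoprotein. Cd93 had 14048.6 and 15556.3 normalised counts in eGFP and 23463.8 and 16355.3 in mVEGF-C libraries. For Ecscr the nearest were Socs6, Nbas, Itga9, BC051077 and Pot1a (0.16 to 0.23). Itga9 had 7153.7 and 4676.6 in eGFP against 18426.8 and 10794.8 in mVEGF-C libraries, the same order of the 4 libraries as Ecscr. For Tie1 they were Ccdc141, Gnb3, Ica1, Slc5a4b and Wdr89 (0.21 to 0.24). Among these nearest genes of all the members, only Cd93 was on the pan-endothelial list. No member was among the 5 genes nearest to another member. The distance was 1.00 between Tie1 and Ecscr, 1.09 between Pecam1 and Ecscr and 1.23 between Pecam1 and Tie1. Of the 8258 genes, from 543 (Ecscr seen from Tie1) to 2412 (Tie1 seen from Pecam1) were nearer. Most of the genes were thus farther from a member than the other members were. With only 4 libraries, which all these genes share, many genes have like profiles by this measure, so the names are a description.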

How the data were processed

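RNA was measured in 4 libraries, 2 per group. Per the labels' protocols, it was extracted with a kit for small samples and amplified linearly. Per the submitters' processing notes, FastQC, Trimmomatic, Salmon and DESeq2 were used with mm10; versions are not listed. Each deposited value is a signal, gene counts that the authors divided by 1 size factor per library. Dividing each library by its smallest value above 0 gave whole reads for 100% of values (tolerance 0.001). On the recovered reads edgeR called 146 genes. The table is limited to genes whose replicate SD of log2(reads + 1) is at most 2.0 in eGFP and 2.999 in mVEGF-C libraries, as read from the values, so replicate spread is understated and p-values are too small by an unknown amount. Of 1146 rows with an Ensembl identifier, 1098 received a symbol from GENCODE vM21.

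The main test was limma 3.58.1 in R 4.3.3 (eBayes with trend) on log2(normalised count + 1), two-sided, for genes with a mean of at least 10. The prior degrees of freedom were infinite, so the variance came from the trend alone. Alternatives used edgeR 4.0.16, DESeq2 1.42.0, other scalings, pseudocounts and filters, the replicate number as a block, and each library left out. The fits were tested on simulated data. The members, gene lists and tests were chosen with earlier results of these data known. Named genes are the members, partners fixed by name, and in each list the 2 highest, the 2 lowest and any called fold changes; some of these are not reported here. The Tie1 to Tek ratio was added after seeing the data.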

Additional observations from a re-analysis of the deposited data

How the results depend on the processing

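The log2 fold changes of Pecam1, Tie1 and Ecscr stayed above 0 and uncalled in all 16 alternatives, with adjusted p of at least 0.636, 0.351 and 0.292. With single libraries left out they lay between 0.29 and 0.69, 1.04 and 1.77, and 1.07 and 1.73, and in the other alternatives between 0.40 and 0.52, 1.30 and 1.47, and 1.28 and 1.41. Leaving out a library leaves 1 in its group, which is assumed to vary like the others. Relative to the other pan-endothelial genes the members stayed above 0 in all 8 alternatives, at 0.31 to 0.86, 1.21 to 1.79 and 1.06 to 1.92. Differences between the replicates were not correlated between the groups across genes (correlation of same-numbered deviations -0.001). That value cannot show whether same-numbered libraries shared a batch, which the labels do not state. The fit with the replicate block gave 0.49, 1.40 and 1.40 for the members (limma, adjusted p = 0.805, 0.453 and 0.37). It called 203 genes, 74 higher and 129 lower. The number of genes called, 194 in the main test, was 41 with eBayes without trend and 601 with DESeq2, and with single libraries left out between 5 (without eGFP 2) and 292 (without mVEGF-C 2), with 38 without eGFP 1. The cause was not tested.

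Of 832 values of the 52 other genes named, 797 kept their direction and their side of the threshold, 2 lost and 7 gained a call, and 26 turned in sign. Eng turned to -0.03, -0.02 and -0.021 with libraries rescaled to 1 total, upper quartile scaling and quantile normalization, Angpt2 to -0.002 with quantile normalization, and Flna to 0.002 in edgeR. With single libraries left out, log2 fold changes that turned ranged from -0.44 to 0.61 for Angpt2, -0.28 to 2.49 for Cd34, -1.25 to 1.52 for Cldn5, -0.25 to 2.29 for Col1a1, -0.051 to 0.93 for Cx3cr1, -0.98 to 0.10 for Egfl7, -1.54 to 0.072 for Elf1, -0.29 to 0.39 for Eng, -0.077 to 0.44 for Flt4, -0.59 to 0.42 for Kdr, -0.11 to 1.99 for Pdgfrb, -0.33 to 0.11 for Pdpn, -1.21 to 0.033 for Ptprb, -0.19 to 3.32 for S100b, -0.003 to 0.63 for Sox18, -2.40 to 0.20 for Svep1 and -0.69 to 0.23 for Tek.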
